A study of Mus musculus with 18 samples.

Results

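The mitochondrial ribosomal protein genes were taken as every gene symbol made of Mrpl or Mrps, a number and at most 1 further letter. They numbered 77 of the 24346 symbols listed, 48 named Mrpl for the large subunit and 29 named Mrps for the small subunit. Symbol and subunit did not match for every gene. The lists by role used below hold 30 and 20 large-subunit genes and 16 and 10 small-subunit genes. All 77 passed the filter on low values, which left 12234 genes for testing. RNA was measured in isolated islets of Langerhans, the endocrine clusters of the pancreas, from C57BL/6 mice. The deleted mice lacked exon 2 of Cdh13, the gene of the cell surface protein T-cadherin, and the floxed mice carried exon 2 between loxP sites and served as controls. The 18 libraries formed 6 groups of 3. Each genotype gave 3 groups: mice aged 8 weeks fed chow, mice aged 14 weeks fed chow, and mice aged 14 weeks fed a high-fat diet for the last 6 weeks. The series text calls the floxed controls wild type and the deleted mice knockouts; the Cre line, and so the cells in which the exon was removed, is not given in the sources used here.

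Mitochondria keep a genome of their own, and the few proteins it encodes are core subunits of the oxidative phosphorylation complexes. They are made by the mitochondrial ribosome, whose RNA comes from that genome and whose proteins are encoded in the nucleus, translated in the cytosol and imported. Some of these proteins descend from bacterial ribosomal proteins and others were added in the course of mitochondrial evolution. In the insulin-producing beta cell, which makes up most of an islet, oxidative phosphorylation couples glucose metabolism to insulin release.

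Values are FPKM (fragments per kilobase of transcript, scaled to sequencing depth) as deposited, summing to between 903346 and 1394009 per library, and the absolute depth is unknown. The insulin gene Ins2 held 40.2% to 52.7% of each sum, and all 8 beta cell markers and all 5 alpha cell markers passed the filter on low values. Cdh13 was lower in deleted than in floxed libraries in every condition without overlap, at 0.247 to 0.809 against 1.08 to 2.06 FPKM. One library, replicate 1 of the deleted islets at 8 weeks, stood above the other libraries of its group in the mean of the 77 genes, at 5.60 against 5.41 and 5.38 on the scale of log2(FPKM + 1). Differences below are on that scale, which understates fold changes of low genes, and a gene was called when its p from limma, adjusted over all 12234 genes by the Benjamini-Hochberg method, was below 0.05. Replicates carry numbers in the labels, with no word on whether they were separate animals, so every p rests on the spread among these libraries alone, which may be technical.

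The 77 genes were expressed at moderate to high levels in every group. Their means over the 18 libraries ran from 5.06 FPKM for Mrpl19 to 221.7 FPKM for Mrps21, with a median of 45.6 FPKM against 9.88 FPKM for all tested genes. Mrps21, a small-subunit protein with a bacterial counterpart, led the order, followed by Mrpl23 at 192 FPKM, which lies at the peptide exit, and Mrpl42 at 191 FPKM. Mrpl33 at 150.3 FPKM and Mrps18c at 148 FPKM came next, both with bacterial counterparts. At the other end, Mrpl11 of the factor-recruiting stalk measured 9.53 FPKM, Mrps25 7.96 FPKM and Mrpl19 5.06 FPKM.

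Neighbours in this order mostly overlapped. Mrpl23 ranged from 162 to 219 FPKM and Mrpl42 from 151 to 243 FPKM over the 18 libraries, so their order is not fixed by these data. Mrps21 ranged from 163 to 297 FPKM and overlapped both. Mrpl19 stayed between 4.20 and 5.66 FPKM and did not overlap Mrps25, which ranged from 6.69 to 9.28 FPKM. Both low genes share exonic bases with a gene on the other strand, Mrpl19 1962 bases with Gcfc2 and Mrps25 3533 bases with Nr2c2. In all, 25 of the 77 genes share exonic bases with another annotated gene, and the library kit does not mark strand, so reads of overlapping genes cannot be told apart. Across the 77 genes the mean level fell with coding length (Pearson's r = -0.47, Spearman's rho = -0.47, a description across genes, which are not independent replicates).

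**Figure D1:**
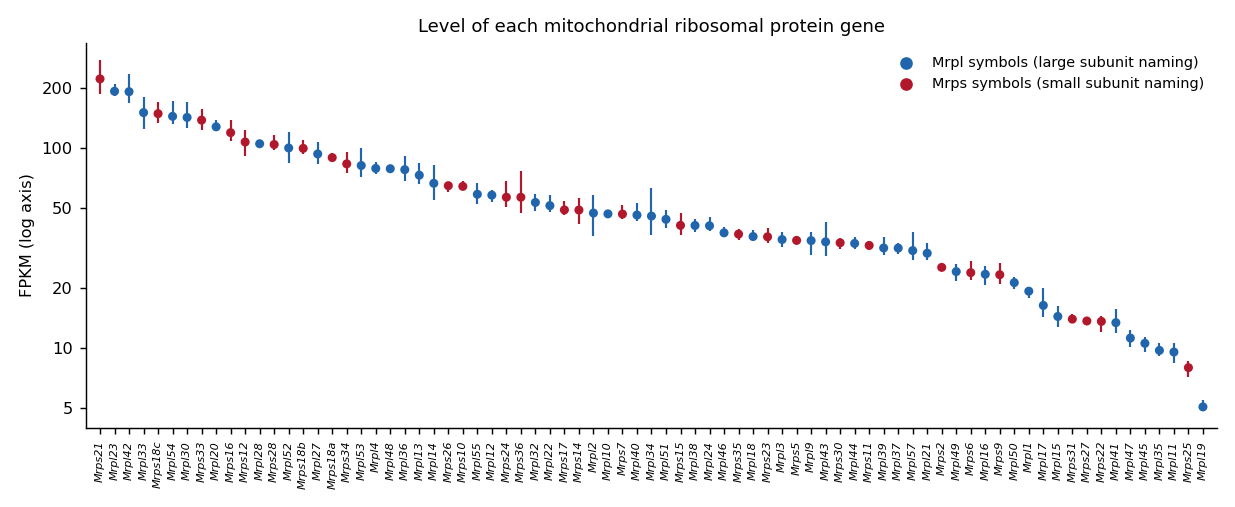
Mean FPKM over 18 libraries of each of the 77 genes (points, log axis), ordered by level and coloured by Mrpl or Mrps symbol; each line spans the lowest to the highest of the 6 group means. Mrps21 leads at 221.7 FPKM, Mrpl19 is lowest at 5.06 FPKM, and the longest lines, such as those of Mrps36 and Mrpl34, belong to genes described below.

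The comparison in which these genes differed most was high-fat diet against chow at 14 weeks. In floxed islets, 30 of the 77 genes rose and 2 fell by limma, with a median difference of 0.17 and 64 of 77 higher on the high-fat diet. Over all tested genes the median difference was -0.01, 28.5% were called and 15.0% rose. In deleted islets, 18 rose and 1 fell, with a median of 0.14 and 56 of 77 higher, against 15.0% called and 9.05% that rose over all tested genes. Both directions depend on how libraries are scaled. The deposited values have library medians matched, and when each library was instead scaled to the same total, the median of all genes moved to -0.41 in floxed and -0.40 in deleted islets. On that scale 2 of the 77 genes rose and 48 fell in floxed islets, 2.60% and 62.3% of them, against 2.38% and 66.1% of all 12056 genes tested on it. In deleted islets 0 rose and 57 fell (74.0%), against 1.54% and 67.6%. These shares are near those of all genes. Scaling multiplies all genes of a library by the same factor, so it is no separate check of where members stand against the median gene. On the total scale the members' median was above the median gene by 0.12 in floxed and 0.09 in deleted islets. Directions below are relative to the library median unless another scale is named.

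Ins2 took a larger part of the total on the high-fat diet, 51.7% to 52.7% against 40.3% to 42.6% in floxed and 50.2% to 51.6% against 40.2% to 43.8% in deleted islets. The 77 genes together made up 0.369% to 0.375% of summed FPKM on the high-fat diet and 0.427% to 0.435% on chow in floxed islets. Leaving out the 10 most abundant genes, the shares were 1.11% to 1.15% and 0.991% to 1.08%. In deleted islets they were 0.361% to 0.367% against 0.434% to 0.447% of the whole, and 1.10% to 1.12% against 1.01% to 1.10% without the top 10 genes. In bulk samples, fewer cells of a type and less RNA per cell cannot be told apart.

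Markers of other cell types moved with diet as well. Of the 11 marker lists, each summed as a share of FPKM, the high-fat libraries lay below the chow libraries without overlap for 9 lists in floxed and 7 in deleted islets, and above for 1 and 2. The beta cell sum, most of it Ins2, was above in both, at 61.7% to 62.5% against 49.4% to 51.8% in floxed and 60.0% to 61.2% against 49.3% to 53.1% in deleted islets. Its genes did not all move alike in FPKM. In floxed islets Slc2a2 (23.9 to 28.2 against 28.6 to 33.7 FPKM) and Pdx1 (18.1 to 20.1 against 21.4 to 25.2 FPKM) were lower on the high-fat diet. Ins1, Ins2, Iapp and Nkx6-1 were higher there, all without overlap, and Mafa and Ucn3 overlapped. In deleted islets all 8 were higher without overlap. The delta cell sum went opposite ways, with 0.111% to 0.123% against 0.222% to 0.247% in floxed and 0.206% to 0.239% against 0.168% to 0.195% in deleted islets. The alpha cell sum was below in floxed islets, at 1.70% to 2.10% against 3.72% to 4.37%, and overlapped in deleted islets, as the pancreatic polypeptide cell sum did in both. The acinar, duct, endothelial, macrophage, fibroblast, lymphocyte and erythroid sums were below in both genotypes. These are shares of a summed FPKM that was larger on the high-fat diet. In FPKM itself the endothelial sum overlapped, at 136 to 176 against 156 to 165 in floxed and 115 to 122 against 119 to 136 in deleted islets. The lymphocyte sum also overlapped in both genotypes and the fibroblast sum in floxed islets. The acinar, duct, macrophage and erythroid sums were still lower in both. Within the duct, macrophage and erythroid lists, not every gene was lower without overlap. Krt7, the highest of the duct list, overlapped in both genotypes, at 756 to 803 against 698 to 773 FPKM in floxed islets. Krt19 and Spp1 were lower in both. Of the macrophage list, only C1qa overlapped in floxed islets, and only C1qa and C1qc were lower without overlap in deleted islets. The acinar sum was 0.000719% to 0.0182% against 0.0713% to 0.411% in floxed and 0.00420% to 0.0110% against 0.109% to 0.195% in deleted islets. No marker of the 11 lists was at 0 in every library, and the part of these shares in the members' diet differences was not tested.

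Mrps36 (chr13:100735955-100744659, minus strand, GRCm38) showed the largest rise. Its name is that of a ribosomal protein, but the protein is known as a subunit linked to the alpha-ketoglutarate dehydrogenase complex of the citric acid cycle. In floxed islets it measured 42.6, 43.6 and 56.1 FPKM on chow and 79.99, 75.1 and 74.4 FPKM on the high-fat diet at 14 weeks, so the groups did not overlap. The ratio of means was 1.61 ± 0.151 (SE, n = 3 and 3) and the difference 0.69 ± 0.10 (SE; adjusted p = 4.39e-05, limma). In deleted islets it went from 52.5, 54.3 and 44.1 to 67.9, 64.5 and 62.8 FPKM, again without overlap (0.37 ± 0.10, SE; adjusted p = 0.0138, limma). This deleted-islet call was lost without replicate 3 on chow or replicate 1 on the high-fat diet. Mrps36 has 3 annotated pseudogenes, and Mrpl23 and Mrpl48 have 1 each. How reads that match several copies were assigned is not given in the sources used here.

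Mrpl34 (chr8:71464959-71465747, plus strand), a short large-subunit protein with a bacterial counterpart, was next in floxed islets. It measured 37.3, 41.3 and 40.5 FPKM on chow and 58.0, 66.5 and 64.3 FPKM on the high-fat diet, without overlap (0.65 ± 0.09, SE; adjusted p = 5.50e-05, limma). In deleted islets the chow libraries measured 45.3, 47.9 and 38.4 FPKM and the high-fat libraries 52.2, 52.8 and 44.5 FPKM, which overlapped and did not pass (0.18 ± 0.09, SE; adjusted p = 0.209, limma). Mrpl34 and Mrps36 were also the 2 genes that rose in floxed islets on the total scale, by 0.19 and 0.22.

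The most abundant member, Mrps21 (chr3:95862634-95871519, minus strand), rose in both genotypes. It measured 168, 189 and 200.6 FPKM on chow and 284, 244 and 297 FPKM on the high-fat diet in floxed islets (0.56 ± 0.12, SE; adjusted p = 0.00164, limma). In deleted islets it measured 209, 237 and 163 FPKM on chow and 256, 272 and 255 FPKM on the high-fat diet (0.38 ± 0.12, SE; adjusted p = 0.0366, limma), and this call was lost without the filter on low values, under quantile normalization and with only the compared groups in the fit. It was also lost without any 1 of the 6 libraries compared except replicate 2 on chow. Neither pair of groups overlapped.

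Mrpl14 (chr17:45686322-45698495, plus strand), a protein of the large subunit where it meets the small one, showed the largest rise in deleted islets. It went from 55.6, 68.0 and 52.4 FPKM to 74.2, 88.8 and 83.0 FPKM there (0.48 ± 0.10, SE; adjusted p = 0.00218, limma). In floxed islets it went from 57.2, 58.9 and 69.7 to 79.6, 73.0 and 85.6 FPKM (0.36 ± 0.10, SE; adjusted p = 0.00957, limma). The groups did not overlap in either genotype, and both calls held when any 1 library was left out.

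Mrpl2 (chr17:46646229-46650139, plus strand) moved the other way. It encodes a large-subunit protein next to the site where peptide bonds are formed. It measured 54.2, 56.9 and 60.1 FPKM on chow and 38.8, 50.04 and 46.0 FPKM on the high-fat diet in floxed islets (-0.34 ± 0.09, SE; adjusted p = 0.00551, limma). In deleted islets it measured 54.6, 58.9 and 60.3 FPKM on chow and 43.2, 45.2 and 44.1 FPKM on the high-fat diet (-0.38 ± 0.09, SE; adjusted p = 0.00489, limma). All high-fat values lay below all chow values of 14 weeks in both genotypes. Measured against the median gene on the total scale, its differences were -0.40 in floxed and -0.44 in deleted islets, which is no separate check of the fall. Mrps25 (chr6:92169525-92184033, minus strand), a small-subunit protein without a bacterial counterpart, was the other member that fell, in floxed islets, from 8.28, 8.49 and 9.11 to 7.60, 7.05 and 6.69 FPKM (-0.25 ± 0.09, SE; adjusted p = 0.0359, limma). That call was lost under quantile normalization, with only the compared groups in the fit, and without any of 5 single libraries.

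The 250 bases before the RefSeq start of Mrps36, Mrpl34 and Mrpl2 are given because these genes had the largest rises and the largest fall. The sequences are RefSeq's, in build GRCm38.p6, read 5′ to 3′ on the strand of the gene. They span chr13:100744660-100744909 on the minus strand for Mrps36, chr8:71464676-71464925 on the plus strand for Mrpl34 and chr17:46645979-46646228 on the plus strand for Mrpl2. For Mrpl34 the RefSeq start lies upstream of the GENCODE start given above, so the window ends before it. Capitals mark matches to the 7 motifs listed after them.
Mrps36: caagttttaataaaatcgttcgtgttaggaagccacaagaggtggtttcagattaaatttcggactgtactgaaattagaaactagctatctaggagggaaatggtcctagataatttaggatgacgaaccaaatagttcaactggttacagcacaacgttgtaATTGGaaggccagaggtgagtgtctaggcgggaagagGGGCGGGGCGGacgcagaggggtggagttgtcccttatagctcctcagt
Mrpl34: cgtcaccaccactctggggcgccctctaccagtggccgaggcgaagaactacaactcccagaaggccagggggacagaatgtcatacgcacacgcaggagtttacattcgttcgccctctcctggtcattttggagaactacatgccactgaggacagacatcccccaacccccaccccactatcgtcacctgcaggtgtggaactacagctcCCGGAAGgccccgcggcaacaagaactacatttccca
Mrpl2: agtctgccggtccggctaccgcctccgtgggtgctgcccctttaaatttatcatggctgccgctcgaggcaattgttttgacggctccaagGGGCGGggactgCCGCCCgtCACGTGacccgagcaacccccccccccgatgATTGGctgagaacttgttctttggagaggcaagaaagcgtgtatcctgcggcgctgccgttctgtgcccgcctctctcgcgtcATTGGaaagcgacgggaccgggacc
Mrpl2 held 2 GC boxes in opposite orientation, an E-box and 2 inverted CCAAT boxes, Mrps36 held 2 overlapping GC boxes and an inverted CCAAT box, and Mrpl34 held a single ETS match. The Mrpl2 window is shared with Klc4, which starts 207 bases away on the other strand.

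The motifs were searched on both strands in the 250 bases before the start of the 68 members and 9303 tested genes that the RefSeq table holds. The NRF-1 core GCGCATGC was in 8 of 68 members (11.8%) against 4.77% of the 9303 promoters. The ETS core CCGGAAG was in 15 members (22.1%) against 14.4%, and the YY1 core AAGATGGC in 4 members (5.88%) against 2.21%. GC boxes (GGGCGG) were in 33 members (48.5%) against 60.5%. CCAAT boxes were in 25 members (36.8%) against 36.2%, TATAAA in 4 (5.88%) against 6%, and the E-box CACGTG in 5 (7.35%) against 8.77%. The shares are descriptions of letters in these windows and were not tested. Of the 26 members with a promoter sequence that rose on the high-fat diet in floxed islets, 8 held the ETS core and 3 the NRF-1 core, against 7 and 5 of the other 42.

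**Figure D2:**
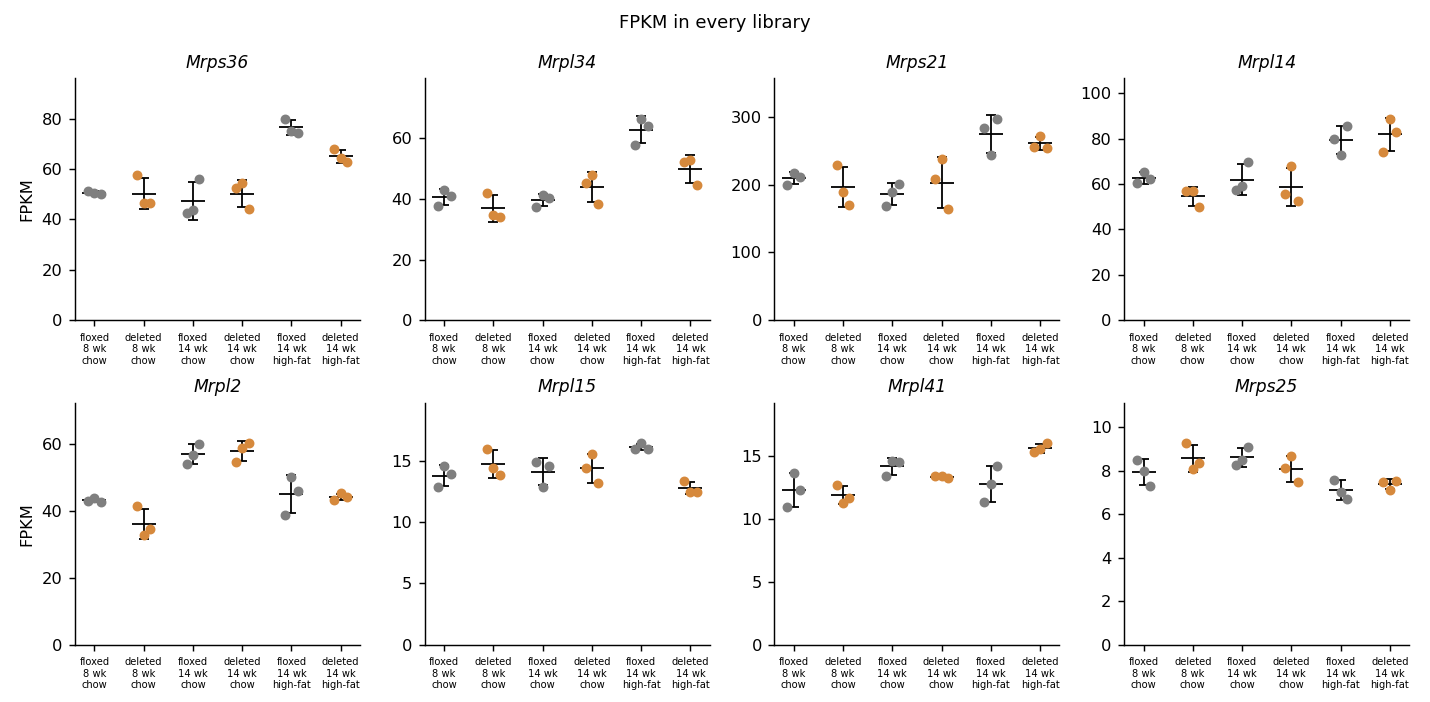
FPKM in every library (points, grey for floxed and orange for deleted), with the group mean and SD of 3 libraries in black, for 8 of the genes described; each axis starts at 0. Mrps36 and Mrpl34 stand highest in floxed high-fat libraries, and Mrpl2 is highest in the 6 chow libraries of 14 weeks.

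By role, the diet rises were spread over both subunits. The share of all tested genes that rose, 15.0% in floxed and 9.05% in deleted islets, is the background for each count that follows. Of 30 large-subunit genes with a bacterial counterpart, 12 rose and 1 fell in floxed islets (median 0.18) and 10 rose and 1 fell in deleted islets (median 0.18). Of the 20 large-subunit genes without one, 8 rose in floxed islets (median 0.18) and 4 in deleted islets (median 0.08). Of 16 small-subunit genes with a bacterial counterpart, 7 rose in floxed islets (median 0.22) and 2 in deleted islets (median 0.14). The 10 small-subunit genes without one had a median of 0.00 in floxed islets, with 2 that rose and 1 that fell, and of 0.06 in deleted islets, with 1 that rose. The lists were drawn up with earlier results of these data known, and the differences between them were not tested.

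The largest floxed rises in the large subunit after Mrpl34 were those of Mrpl43 (0.54), Mrpl42 (0.48), Mrpl17 (0.46) and Mrpl30 (0.43). Mrpl42 and Mrpl43 have no bacterial counterpart, Mrpl17 lies at the peptide exit, and Mrpl30 descends from a bacterial protein. Mrpl42 went from 151, 168 and 183 to 230.3, 228 and 243 FPKM, so the high-fat libraries stood clear of the chow libraries. Mrpl43 went from 26.9, 30.7 and 28.9 to 45.8, 41.3 and 40.1 FPKM, and shares 385 exonic bases with Twnk, the mitochondrial DNA helicase gene on the other strand. In the small subunit, Mrps12 of the decoding centre rose by 0.44, Mrps14 by 0.43 and Mrps24 by 0.42 in floxed islets, all by limma. Mrps12 went from 86.0, 86.3 and 100.4 to 130.5, 123 and 118 FPKM, again without overlap.

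In deleted islets the largest rises after Mrpl14 were Mrpl53 (0.44), Mrpl30 (0.39), Mrpl33 and Mrps21 (0.38 each), Mrps36 (0.37), then Mrpl27, Mrpl13, Mrpl57 and Mrpl55 (0.35 each). Mrpl27 and Mrpl55 sit at the central protuberance, where 3 of 7 genes rose in floxed and 2 in deleted islets. Mrpl27 measured 86.1, 87.8 and 76.8 FPKM on chow and 104, 103 and 114 FPKM on the high-fat diet in deleted islets. Mrpl33 measured 139, 155 and 121 FPKM on chow and 170, 177 and 191 FPKM on the high-fat diet, and Mrpl53, whose annotated exons all lie within those of a second gene on the same strand, 67.7, 92.2 and 63.8 against 95.9, 95.9 and 109 FPKM. None of these groups overlapped. None of the 3 stalk genes, Mrpl10, Mrpl11 and Mrpl12, passed the test in either genotype, and 1 of 6 genes at the peptide exit rose in floxed islets, near the background, and 2 in deleted islets.

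The floxed and deleted diet comparisons share no library. Relative to the library median, 15 genes rose in both, which is 50% of the floxed list and 83.3% of the deleted list, and over all tested genes 656 did, 35.8% and 59.3% of the lists. The 15 were Mrpl13, Mrpl14, Mrpl17, Mrpl27, Mrpl30, Mrpl33, Mrpl36, Mrpl42, Mrpl53, Mrpl54, Mrpl55, Mrpl57, Mrps21, Mrps33 and Mrps36. Mrpl2 fell in both. Across the 77 genes the diet differences of the genotypes correlated with r = 0.69 (Spearman's rho = 0.68), against 0.63 and 0.53 across the 12234 genes tested; this describes genes, which share libraries within each comparison.

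**Figure D3:**
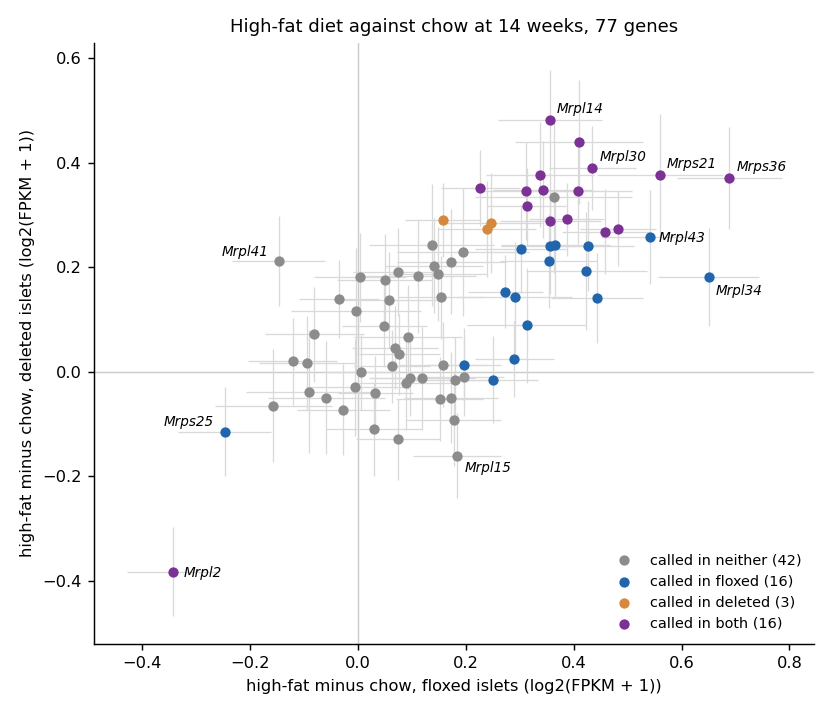
Difference between high-fat diet and chow at 14 weeks in floxed (x axis) and deleted (y axis) islets for the 77 genes, on the scale of log2(FPKM + 1) as deposited, with SE bars; colours show which genes limma called. Most points lie up and right of 0 and Mrpl2 lies farthest to the lower left; on the total scale the median gene moves by -0.41 and -0.40 and most members fall.

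Libraries mattered for the number of calls. The floxed count went from 32 to 21 without replicate 1 of the chow libraries. That library had the highest acinar share and the lowest summed FPKM of its group. The deleted count went from 19 to 7 without replicate 3 on chow and to 10 without replicate 1 on chow. It went to 27 without replicate 2 on chow, the library with the highest acinar share and the highest summed FPKM of its group. It went to 11, 12 and 8 without replicates 1, 2 and 3 on the high-fat diet. The part of these library traits in the counts was not tested. Called genes whose groups overlapped were Mrpl39 and Mrps6 in floxed and Mrps15 in deleted islets. Of the calls, 18 of 32 in floxed and 6 of 19 in deleted islets held under every alternative other than the total scale and without any 1 library.

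Other genes of mitochondrial translation were counted against the same background of 15.0% and 9.05% that rose. The counts of assembly and translation factors were near or below it. Of 6 tested ribosomal subunit genes that carry other symbols, Chchd1 rose in both genotypes (0.36 and 0.33) and Aurkaip1 in floxed islets (0.27), with list medians of 0.26 and 0.14. Of 24 assembly factors, 4 rose and 1 fell in floxed islets and 1 rose in deleted islets (medians 0.03 and -0.02). Malsu1, which keeps the large subunit from joining too early, was the largest of these (0.69, floxed), Tfb1m, a ribosomal RNA methyltransferase, rose in both (0.45 and 0.34), and Fastkd2 fell (-0.32, floxed). Of 14 translation factors, Mrrf, the recycling factor, and Taco1 rose in floxed islets (0.31 and 0.49), Lrpprc fell there (-0.26), and Mtfmt rose in deleted islets (0.26), with list medians of 0.04 and -0.03.

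The 17 mitochondrial tRNA synthetases, which charge the tRNAs this ribosome uses, had a median of -0.16 in floxed and -0.04 in deleted islets. Lars2, the leucine enzyme, fell in both (-0.97 and -1.02), Aars2 and Pars2 fell in floxed islets (-0.42 and -0.39) and Wars2 rose there (0.41). None of 10 genes for mitochondrial DNA transcription and replication was called in either genotype, with medians of 0.06 and 0.11. Of 8 regulators of mitochondrial biogenesis, Nrf1, Myc and Gabpa fell in floxed islets (-0.31, -0.29 and -0.29), and none was called in deleted islets (medians -0.21 and -0.13). In the cell cycle list, 5 of 11 genes rose and 1 fell in floxed islets, and 1 fell in deleted islets (medians 0.29 and -0.18). For scale, 65 of 80 cytosolic ribosomal protein genes rose and 1 fell in floxed islets (median 0.50) and 68 rose in deleted islets (median 0.54), and 51 of 79 oxidative phosphorylation genes rose and 2 fell (median 0.31), then 42 and 1 (median 0.27). These are deposited-scale counts, and differences between the lists were not tested.

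Coding length ordered the diet differences of the 77 genes. Their coding sequences ran from 195 to 1326 bases, with a median of 576 bases against 1356 bases for all tested protein-coding genes. Among the 23 genes under 450 coding bases, 19 rose in floxed islets (82.6%, median 0.36). Of the 27 genes from 450 to under 750 bases, 8 rose and 1 fell (29.6% rose, median 0.15), and of the 27 of 750 bases and over, 3 rose and 1 fell (11.1% rose, median 0.06). In deleted islets 12, 4 and 2 rose (52.2%, 14.8% and 7.41%; medians 0.29, 0.07 and 0.01). The class limits were chosen after the values were seen. Across the 77 genes the difference correlated with log2 of the coding length at r = -0.60 in floxed and -0.63 in deleted islets. With log2 of the transcript length r was weaker, at -0.358 in floxed and -0.425 in deleted islets.

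Other protein-coding genes showed the same order. In floxed islets 43.4% of 823 other genes under 450 bases rose, 26.0% of 1601 in the middle class and 10.1% of 9113 in the longest class. In deleted islets the shares were 31.1%, 11.9% and 6.43%. Leaving out cytosolic ribosomal and oxidative phosphorylation genes, 38.9% of 742 short genes rose in floxed and 25.3% in deleted islets. Across 11537 other genes r was -0.20 in floxed and -0.08 in deleted islets. The shares of short genes were higher among the members than among other genes, and that difference was not tested. The shares are on the deposited scale, and on the total scale 2 members rose in floxed and 0 in deleted islets.

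**Figure D4:**
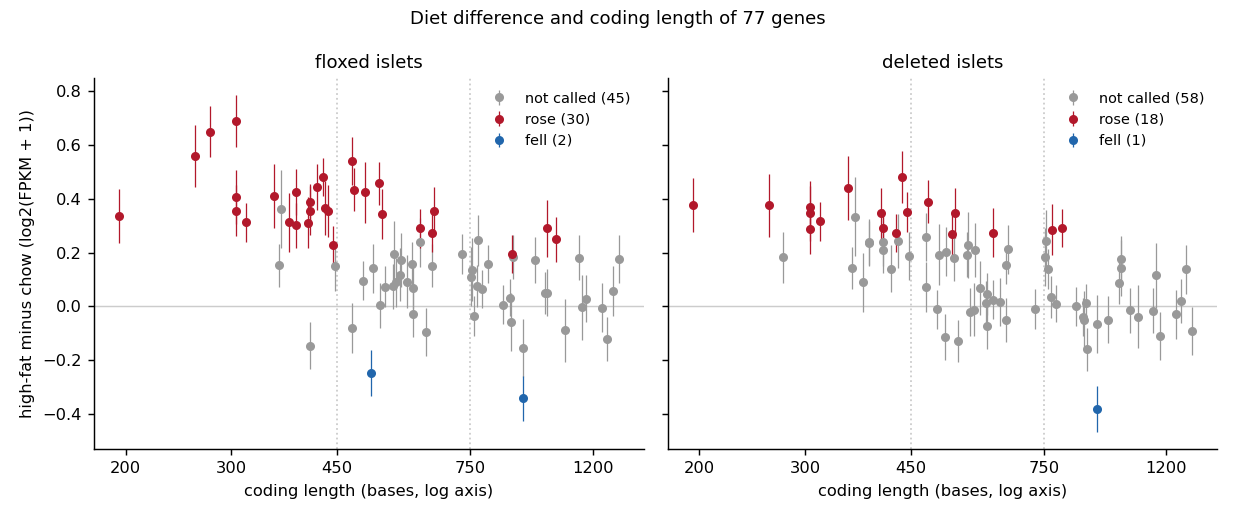
Difference between high-fat diet and chow (log2(FPKM + 1), as deposited, with SE bars) against coding length (log axis) of the 77 genes, in floxed and deleted islets; dotted lines mark 450 and 750 bases. The rises (red) gather at short lengths, 19 of 23 genes under 450 bases in floxed islets, and Mrpl2 is the lowest point in both panels; on the total scale 2 genes rose and 48 fell in floxed islets, and 0 rose and 57 fell in deleted islets.

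**Figure D5:**
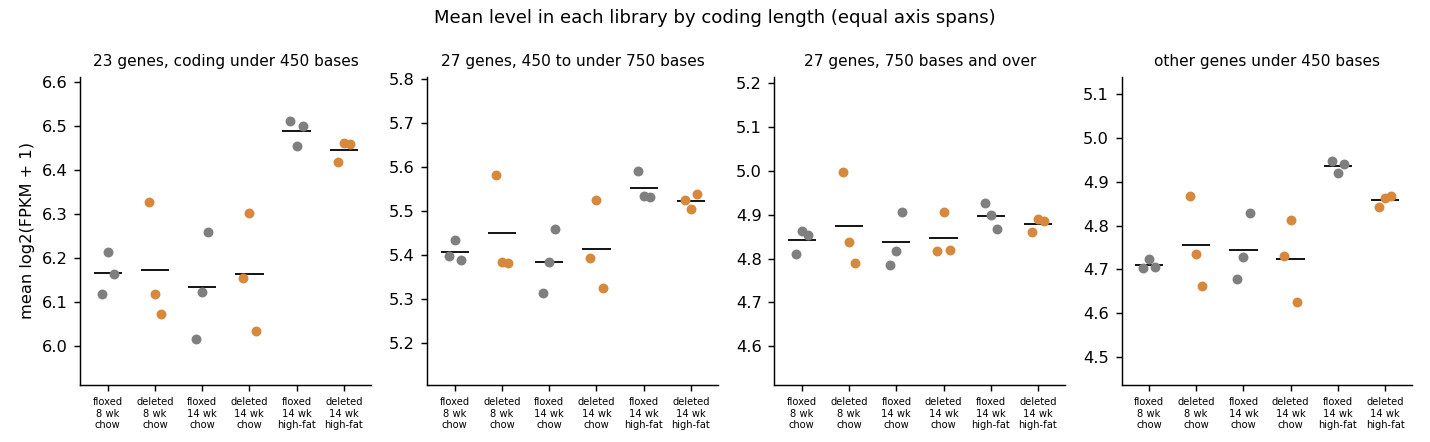
Mean log2(FPKM + 1), as deposited, in each library (points; bars are group means) for members in 3 classes of coding length and for 742 other short genes, with equal axis spans. Members under 450 bases lie at 6.42 to 6.51 in the 6 high-fat libraries and at 6.02 to 6.33 in the 12 chow libraries, and the other short genes lie at 4.84 to 4.95 and 4.63 to 4.87, which overlap; total scaling lowers the high-fat values.

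Between genotypes on chow no member was called. At 8 weeks limma called 0 of 77 genes, against 0.548% of all tested genes. The median difference between deleted and floxed islets was 0.03. The pancreatic polypeptide cell markers Ppy and Pyy summed to 3.41% to 5.22% of FPKM in deleted and 1.04% to 1.54% in floxed libraries at this age, and the alpha cell markers to 1.48% to 2.22% and 2.61% to 3.04%. The 3 of smallest p were Mrpl2, with 41.3, 32.8 and 34.5 FPKM in deleted and 43.0, 43.8 and 42.7 FPKM in floxed libraries (-0.25 ± 0.09, SE; adjusted p = 0.192, limma), Mrpl33 (0.22) and Mrps18b (0.16). At 14 weeks on chow 0 of 77 were called, against 0.114% of all tested genes, and the median was 0.02. Mrpl9, a large-subunit protein with a bacterial counterpart, had the smallest p, with 28.4, 29.7 and 29.6 FPKM in deleted and 32.3, 33.4 and 36.1 FPKM in floxed libraries (-0.21 ± 0.07, SE; adjusted p = 0.334, limma). Those groups did not overlap. Mrpl49 (0.19) and Mrpl37 (-0.19) followed.

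On the high-fat diet 3 of the 77 genes were called between genotypes, against 10.7% of all tested genes, and the members' median was -0.03. Mrpl15 (chr1:4773206-4785739, minus strand), a large-subunit protein with a bacterial counterpart, measured 13.3, 12.5 and 12.5 FPKM in deleted and 15.99, 16.5 and 16 FPKM in floxed libraries (-0.32 ± 0.08, SE; adjusted p = 0.0156, limma). Mrpl34 measured 52.2, 52.8 and 44.5 FPKM in deleted and 58.0, 66.5 and 64.3 FPKM in floxed libraries (-0.33 ± 0.09, SE; adjusted p = 0.0268, limma). Mrpl41 (chr2:24974117-24975098, minus strand), a large-subunit protein without a bacterial counterpart, was the one that rose, at 15.4, 15.5 and 16.1 against 11.3, 12.8 and 14.2 FPKM (0.28 ± 0.09, SE; adjusted p = 0.0423, limma). None of the 3 pairs of groups overlapped. The Mrpl41 call was lost under quantile normalization, with only the compared groups in the fit, on the total scale and in 8 of the 18 fits that left out 1 library. Without floxed replicate 2 none was called, without deleted replicate 2 only Mrpl34 was, and without deleted replicate 3 all 3 calls were lost and Mrps6 was called instead. The number called was 5 without replicate 1 of the deleted islets at 8 weeks, a library outside the comparison that enters the shared estimate of spread. Without the filter on low values only Mrpl15 was called. Of the 11 marker lists, 7 did not overlap between genotypes on this diet. The alpha cell sum, at 2.65% to 3.48% against 1.70% to 2.10% of FPKM, and the delta cell sum, at 0.206% to 0.239% against 0.111% to 0.123%, were higher in deleted libraries. The beta cell sum, at 60.0% to 61.2% against 61.7% to 62.5%, and the duct, endothelial, macrophage and erythroid sums were lower. Within the beta cell list, Iapp was lower in FPKM in deleted libraries and Ins2 and Nkx6-1 overlapped. Ins1, Mafa, Slc2a2, Ucn3 and Pdx1 were higher in deleted libraries without overlap. Of the duct list, Krt19 was higher there (2.4 to 2.7 against 0.76 to 1.2 FPKM), Krt7 was lower, and Sox9, Spp1 and Cftr overlapped. Of the macrophage list, C1qa, C1qb and C1qc were lower, and Csf1r, Cd68, Itgam and Adgre1 overlapped. Kdr and Emcn of the endothelial list and Hbb-bs and Alas2 of the erythroid list overlapped, and the rest of these lists was lower. The part of these in the 3 differences was not tested. In the lists of other genes on this diet, Mrrf (-0.30), Wars2 (-0.43) and 5 of 11 cell cycle genes fell and Dhx30, an assembly factor, rose (0.26).

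Over the mean of the 3 conditions 0 of 77 were called by limma, against 3.61% of all tested genes. The smallest p values belonged to 3 members. They were Mrpl9 (-0.13 ± 0.04, SE; adjusted p = 0.0829, limma), Mrpl49 (0.13 ± 0.04, SE; adjusted p = 0.0930, limma) and Mrps18b (0.13 ± 0.04, SE; adjusted p = 0.105, limma). Mrpl9 was called without replicate 3 of the deleted high-fat libraries. The interaction of genotype with diet called 0 of 77, against 3.53% of all tested genes. Mrpl34 came closest (-0.47 ± 0.13, SE; adjusted p = 0.0578, limma): its diet difference was 0.65 in floxed and 0.18 in deleted islets. It was called with only the compared groups in the fit, on the total scale, and without replicate 1 of the deleted islets at 8 weeks or replicate 3 of the deleted chow libraries at 14 weeks. Mrpl15 (-0.34) and Mrpl41 (0.36) followed. So Mrpl34, past the threshold in floxed and not in deleted islets, did not pass the test of the difference itself.

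Between 8 and 14 weeks on chow, Mrpl2 was the only member called in either genotype. It rose from 43.0, 43.8 and 42.7 to 54.2, 56.9 and 60.1 FPKM in floxed islets (0.39 ± 0.09, SE; adjusted p = 0.0111, limma). In deleted islets it rose from 41.3, 32.8 and 34.5 to 54.6, 58.9 and 60.3 FPKM, a ratio of 1.60 ± 0.124 (SE, n = 3 and 3; difference 0.67 ± 0.09, adjusted p = 0.000134, limma). The groups did not overlap in either genotype. Over all tested genes 4.15% were called in floxed and 2.91% in deleted islets, and the members' medians were -0.03 and -0.02. The rise with age and the fall with diet share the chow libraries of 14 weeks, so they are not independent. In floxed islets the call with age was lost without replicate 3 on chow at 14 weeks. On the total scale, where the median gene rose by 0.12 in floxed and 0.15 in deleted islets, 10 and 11 of the 77 members rose and none fell, against 9.80% and 10.5% of all genes that rose. Marker sums also moved with age: in floxed islets 8 of 11 lists were higher at 14 weeks without overlap and 1 lower, and in deleted islets 5 were higher and 2 lower. The acinar sum was 0.0713% to 0.411% of FPKM at 14 weeks against 0.00553% to 0.0159% at 8 weeks in floxed islets, and 0.109% to 0.195% against 0.00195% to 0.0791% in deleted islets. The beta cell sum was lower at 14 weeks in both genotypes, and the pancreatic polypeptide cell sum was 0.855% to 2.12% against 3.41% to 5.22% in deleted islets. Their part in the Mrpl2 difference was not tested. The interaction of genotype with age called 0 of 77 by limma, against 0.196% of all tested genes. The 3 of smallest p were Mrps12 (0.28), Mrpl2 (0.28) and Mrpl34 (0.27).

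Within groups the members rose and fell together from library to library. After group means were removed, the median pairwise r among the 77 genes was 0.40 and 90% of the 2926 pairs were positive, against 0.00 and 50% over all tested genes, 0.66 among oxidative phosphorylation genes and 0.86 among cytosolic ribosomal protein genes. Among members under 450 coding bases the median r was 0.61, in the middle class 0.43, and in the longest class 0.27. The points are 18 libraries, and all genes of a library share its depth and composition. In 5 of 6 groups the library highest in the members' mean was also the highest in summed FPKM, and in 5 of 6 the lowest was the lowest. The 5 other genes most like the members' mean, by r of group-centred values over 18 libraries, were Rps6 (0.97), Timm8b (0.96), Rpl13a (0.96), Ndufa11 (0.96) and Ndufab1 (0.96). Among the members, Mrpl47, which shares exonic bases with Actl6a and Ndufb5, tracked the mean of the others least (r = -0.06) and Mrps16 most (0.93).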

How the data were processed

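Islet RNA was amplified with SMART-Seq HT and made into libraries with Nextera, which does not mark strand, per the labels' protocols. The authors deposited FPKM by gene symbol for every library. The submitters' processing notes name Cufflinks 2.2.1, TopHat2 2.0.13, SAMtools 0.1.19 and Bowtie2 2.2.3, with build mm10. The unit is not named there and was taken from Cufflinks and the values. The deposited FPKM look rescaled between libraries, with median ratios of 1.0037 to 1.0079. The number of fragments is unknown, so no counting error can be given.

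A gene was tested if 3 or more of the 18 libraries reached 1 FPKM. limma 3.58.1 (R 4.3.3 with statmod 1.5.0) was run on log2(FPKM + 1), one mean for each of the 6 groups, with trended, robust empirical Bayes variances, and was tested on simulated data. Each of 10 contrasts was adjusted over all tested genes. Positions, coding lengths and overlaps came from GENCODE vM21 on GRCm38 (mm10), and promoters from RefSeq, GRCm38.p6.

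The members, lists and comparisons were chosen with earlier results of these data known. Genes were named by rule: the 5 highest and 3 lowest levels, up to 10 called rises and falls a contrast, the 3 smallest p where none was called, up to 3 of each list, and the 5 genes most like the members. Gcfc2, Nr2c2, Twnk, Klc4, Actl6a, Ndufb5, Mrpl47, Mrps16 and list genes beyond 3 were named after their values were seen. Alternatives tried were no filter on low values, a pseudocount of 0.1, median-ratio scaling, quantile normalization, only the compared groups in the fit, a replicate block and each library left out; scaling to the library total was chosen after seeing the data. Values were summarised with pandas 2.3.3 and numpy 2.4.6 and drawn with matplotlib 3.10.9 in Python 3.11.15.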

Additional observations from a re-analysis of the deposited data

Results flagged for a closer look

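Mrpl18, a large-subunit protein at the central protuberance, had genotype differences of opposite sign under the 2 diets at 14 weeks, and neither passed limma's test. On chow the deleted libraries measured 36.3, 40.6 and 35.5 FPKM and the floxed libraries 34.9, 34.9 and 34.3 FPKM, a difference of 0.11 on the log2(FPKM + 1) scale (adjusted p = 0.881, limma). On the high-fat diet the deleted libraries measured 35.5, 31.7 and 35.3 FPKM and the floxed libraries 37.5, 35.9 and 36.2 FPKM, a difference of -0.10 (adjusted p = 0.471, limma). The gene is listed because all deleted values lay above the floxed values on chow and below them on the high-fat diet. It was the only one found when all members were searched for this over pairs of diet, age and genotype comparisons. How many of all tested genes meet the same rule was not counted. The second difference minus the first was -0.203, and limma's interaction of genotype with diet did not pass either (adjusted p = 0.369).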

How the results depend on the processing

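The number of members called stayed within 1.5 times under a pseudocount of 0.1, median-ratio scaling and quantile normalization in all 10 contrasts. On the high-fat diet between genotypes it went from 3 to 1 without the filter on low values, and the interaction of genotype with diet went from 0 to 1 with only the compared groups in the fit. Scaled to the library total, the diet counts went from 32 to 50 in floxed and from 19 to 57 in deleted islets, the age counts from 1 to 10 and from 1 to 11, and the interaction of genotype with diet from 0 to 1; here the scaling shifts all genes. With 1 library left out, the counts ranged from 0 to 5 for genotype on the high-fat diet, from 0 to 1 for genotype over the 3 conditions, from 21 to 35 and from 7 to 27 for diet in floxed and deleted islets, from 0 to 1 for age in floxed islets and from 0 to 1 for the interaction of genotype with diet. The remaining group of 2 was then assumed to vary like the others, and the cause of each change was not tested. No called member changed direction under the alternatives other than the total scale.

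Libraries of equal replicate number showed no strong shared deviation: their deviations correlated between -0.159 and 0.166, and no comparison had all 3 pairs over 0.1. All 3 were positive for diet in floxed islets (0.124, 0.0779 and 0.134) and for genotype on the high-fat diet (0.16, 0.0627 and 0.0686). Correlations of groups of 3 cannot decide whether the samples were paired. With the replicate number as a replicate block, 30 members were called for diet in floxed, 17 in deleted islets and 3 for genotype on the high-fat diet. Depth is unknown, and with 3 libraries a group the SE of a member's difference was 0.07 to 0.15 between groups.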

Other observations

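Several members start close to another gene that is read the other way. Of the 77 genes, 18 (23.4%) have an annotated start within 1000 bases, head to head and without overlap, of another protein-coding gene, against 6.78% of all 21951 protein-coding genes in the annotation, a difference that was not tested. Head-to-head genes whose 5′ ends overlap, such as Mrpl46 and Mrps11, were left out of both counts. Mrps18c starts 29 bases from Helq, Mrpl49 59 bases from Fau, Mrpl30 66 bases from Mitd1, Mrps12 172 bases from Sars2 and Mrpl2 207 bases from Klc4.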
